A study of Mus musculus with 16 samples.

Results

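The caudal ganglionic eminence interneuron genes described here are 10 genes, Nr2f1, Nr2f2, Prox1, Npas1, Npas3, Adarb2, Htr3a, Cxcl14, Lamp5 and Calb2, taken by gene name from the deposited tables. All 10 were found, among 19748 genes at postnatal day 1 (P1) and 19014 genes at postnatal day 14 (P14). The tissue was dissected prefrontal cortex of male mice of the outbred ICR strain. The Ctrl groups were offspring of unstressed dams and the PNS groups offspring of dams put under stress while pregnant; all groups shared strain and sex, and no transgene or drug is named. There were 4 poly(A) RNA libraries in each of Ctrl P1, PNS P1, Ctrl P14 and PNS P14, 16 in all, and the stated subject of the study is how stress before birth alters the development of GABAergic neurons. The labels do not say whether libraries came from separate litters or animals, so a p-value here reflects only how these samples vary, which may be technical.

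Cortical interneurons are inhibitory neurons that use GABA and migrate into the cortex from the ganglionic eminences of the ventral forebrain. The caudal eminence gives rise to cells that settle largely in the superficial layers and include the vasoactive intestinal peptide (VIP), calretinin and neurogliaform classes, while the medial eminence gives rise to the parvalbumin and somatostatin classes. In bulk tissue, fewer cells of a type and less RNA per cell cannot be told apart.

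Library depth ranged from 34.0 to 50.6 M reads in Ctrl P1, 48.0 to 58.8 M in PNS P1, 15.1 to 73.0 M in Ctrl P14 and 26.6 to 40.9 M in PNS P14. Every member was detected in every library and passed the filter on low values in each comparison, and the fewest reads behind a value were 80 at P1 and 30 at P14, both for Htr3a. The most were 6491 at P1 and 9515 at P14. Genes of cortical projection neurons were abundant throughout, with 7 of 8 listed genes in each table and summed normalized counts of 104474 to 147123 at P1 and 124029 to 180159 at P14.

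Of the 5 transcription factors among the members, Nr2f1 and Nr2f2 encode the orphan nuclear receptors COUP-TFI and COUP-TFII. Bulk values do not show which cells made the RNA of these 5 genes. Nr2f1 (ENSMUSG00000069171) lies on chromosome 13, 78188973 to 78199757, and Nr2f2 (ENSMUSG00000030551) on chromosome 7, 70351944 to 70366735, both on the minus strand of GRCm38. Prox1 (ENSMUSG00000010175, chromosome 1, 190118035 to 190170714, minus strand) encodes a homeodomain factor kept by interneurons of caudal origin. Npas1 (ENSMUSG00000001988, chromosome 7, 16455721 to 16477728, minus strand) and Npas3 (ENSMUSG00000021010, chromosome 12, 53248677 to 54072175, plus strand) encode neuronal bHLH-PAS factors. Counting strand is not given in the sources used here, and 4 of these genes share exon bases with a gene on the opposite strand: 2.42% of Nr2f1 exon bases, 7.46% of Nr2f2, 1.59% of Prox1 and 1.38% of Npas3. The antisense partner of Nr2f2, B130024G19Rik, held only 7 to 26 reads per library at P1 and 1 to 7 at P14, whereas that of Nr2f1, A830082K12Rik, held 577 to 1116 reads at P1 and 203 to 1084 at P14. Nr2f1 and Nr2f2 transcripts shared 10 stretches of 50 bases, so few reads could fall on either gene.

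The other 5 members are effectors that distinguish classes of cells. Htr3a (ENSMUSG00000032269, chromosome 9, 48899213 to 48911099, minus strand) encodes the ion channel subunit of the serotonin 3 receptor and is the defining gene of this interneuron group in mice. Adarb2 (ENSMUSG00000052551, chromosome 13, 8202866 to 8768747, plus strand) encodes a brain protein of the RNA adenosine deaminase family that has no known editing activity. Cxcl14 (ENSMUSG00000021508, chromosome 13, 56288643 to 56296551, minus strand) encodes a secreted chemokine. Lamp5 (ENSMUSG00000027270, chromosome 2, 136052239 to 136069917, plus strand) encodes a brain lysosome-associated membrane protein that, among cortical interneurons, marks neurogliaform cells. Calb2 (ENSMUSG00000003657, chromosome 8, 110137502 to 110168210, minus strand) encodes calretinin, a calcium-binding protein also made by Cajal-Retzius cells and by periglomerular cells of the olfactory bulb.

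The sequences upstream of the start are shown for the 2 members that rose most with age, Lamp5 and Cxcl14, and the 2 that fell most, Nr2f2 and Npas3. Each is the 250 bases before the RefSeq start on GRCm38.p6, 5′ to 3′ on the strand of the gene, with matches to a searched motif in capitals. The RefSeq start can differ from the GENCODE start used for the gene coordinates above. It lay 100 bases inside the gene for Lamp5, so the end of that window falls within the gene. It lay 11 bases before the GENCODE start for Nr2f2 and 245 before it for Npas3, and matched it for Cxcl14.
Lamp5 chr2:136052089-136052338 (plus strand): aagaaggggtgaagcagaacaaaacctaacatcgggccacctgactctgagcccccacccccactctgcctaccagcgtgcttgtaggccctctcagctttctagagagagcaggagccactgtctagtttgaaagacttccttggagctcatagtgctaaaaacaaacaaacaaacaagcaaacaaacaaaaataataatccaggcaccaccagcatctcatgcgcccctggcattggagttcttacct
Cxcl14 chr13:56296552-56296801 (minus strand): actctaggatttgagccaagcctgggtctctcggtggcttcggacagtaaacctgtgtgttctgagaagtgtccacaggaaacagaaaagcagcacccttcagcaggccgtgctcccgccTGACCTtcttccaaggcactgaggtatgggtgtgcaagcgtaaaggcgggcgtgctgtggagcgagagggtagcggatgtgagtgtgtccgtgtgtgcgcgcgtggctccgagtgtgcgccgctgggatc
Nr2f2 chr7:70366747-70366996 (minus strand): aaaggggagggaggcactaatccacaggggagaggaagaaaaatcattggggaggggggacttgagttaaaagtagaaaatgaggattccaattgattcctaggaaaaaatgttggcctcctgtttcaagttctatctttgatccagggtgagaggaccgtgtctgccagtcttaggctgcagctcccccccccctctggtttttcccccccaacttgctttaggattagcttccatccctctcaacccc
Npas3 chr12:53248182-53248431 (plus strand): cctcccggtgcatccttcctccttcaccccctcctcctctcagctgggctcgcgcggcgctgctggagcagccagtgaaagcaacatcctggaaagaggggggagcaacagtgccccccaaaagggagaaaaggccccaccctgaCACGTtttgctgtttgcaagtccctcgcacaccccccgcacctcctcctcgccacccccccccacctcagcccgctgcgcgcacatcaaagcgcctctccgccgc
The capitals in the Cxcl14 window are TGACCT, the reverse complement of AGGTCA, the core recognised by nuclear receptors such as the COUP-TF proteins. The capitals in the Npas3 window are CACGT, the reverse complement of ACGTG, a core element of bHLH-PAS factors. Both strands were searched for AGGTCA, for ACGTG and for TAATTA, a homeodomain core, and none of these overlaps another in the windows shown. Of the 8 members with an entry in the RefSeq promoter table, 1 held AGGTCA (Cxcl14), 1 held ACGTG (Npas3) and 1 held TAATTA (Adarb2). Among all 32851 promoter windows of that length the shares were 14.02%, 16.6% and 4.84%. The windows also differed in CpG dinucleotides, with 3 in Lamp5, 16 in Cxcl14, 1 in Nr2f2 and 15 in Npas3, against a median of 6 over all windows. These matches describe letters in a window and not binding. The windows of Nr2f1 and Npas1, not shown, lay inside the gene coordinates given above, with RefSeq starts 884 and 948 bases from the GENCODE start.

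Levels of different members were compared as RPKM, which divides reads by library size and by the length of all exons joined, within each group. In Ctrl P1 the highest level was that of Nr2f1, at 21.3 ± 3.49 RPKM (SD, n = 4), and the lowest that of Lamp5, at 1.58 ± 0.349 RPKM. Between them stood Calb2 (16.6 RPKM), Cxcl14 (14.5 RPKM), Npas1 (10.5 RPKM), Npas3 (6.14 RPKM), Nr2f2 (3.10 RPKM), Prox1 (2.99 RPKM), Adarb2 (2.43 RPKM) and Htr3a (1.66 RPKM). The ranges of the first 4 ran into each other from neighbour to neighbour, as did those of Nr2f2 with Prox1, of Adarb2 with Htr3a and of Htr3a with Lamp5. Clear steps without overlap lay only below Npas1, Npas3 and Prox1.

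In Ctrl P14 the order was led by Cxcl14 at 51.9 ± 1.56 RPKM and Lamp5 at 47.1 ± 5.20 RPKM, whose ranges overlapped each other and lay above those of all other members. Lamp5 had gone from the last place to the second by this length. Nr2f1 (21.9 RPKM) and Calb2 (19.7 RPKM) overlapped, and Npas1 (7.70 RPKM) stood apart from both neighbours. Adarb2 (3.02 RPKM) overlapped Npas3 (2.93 RPKM), and Prox1 (1.82 RPKM), Htr3a (1.63 RPKM) and Nr2f2 (1.28 RPKM) closed the order with overlapping ranges.

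The PNS groups had similar orders. In PNS P1 Calb2 (29.7 ± 14.3 RPKM) was placed before Nr2f1 (21.1 ± 1.07 RPKM), but its range from 13.1 to 45.4 RPKM enclosed that of Nr2f1. The PNS P14 order was led again by Cxcl14 (46.6 ± 5.21 RPKM) and Lamp5 (45.3 ± 7.70 RPKM), which overlapped, and ended with Nr2f2 (1.30 ± 0.108 RPKM), which did not overlap Prox1 above it (1.83 ± 0.186 RPKM). Over the 4 groups, 20 of 36 neighbouring pairs overlapped, against 15 of 36 with the longest transcript as length. Several places depended on that choice. With the longest transcript Lamp5 was at 2.38 RPKM in Ctrl P1, above Htr3a (1.66 RPKM), and first at P14, at 70.7 RPKM against 51.9 RPKM for Cxcl14 in Ctrl and 68.0 against 46.6 RPKM in PNS. The Ctrl P1 level was then 33.8 instead of 21.3 RPKM for Nr2f1, 6.33 instead of 3.10 RPKM for Nr2f2 and 4.75 instead of 2.43 RPKM for Adarb2, and Nr2f2 (2.66 RPKM) was no longer last in PNS P14. The ratio of Nr2f1 to Nr2f2 per length averaged 6.89 ± 1.14 in Ctrl P1, 4.57 ± 1.14 in PNS P1, 17.3 ± 1.55 in Ctrl P14 and 17.7 ± 0.842 in PNS P14 (SD, n = 4 each), given as a description.

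**Figure D1:**
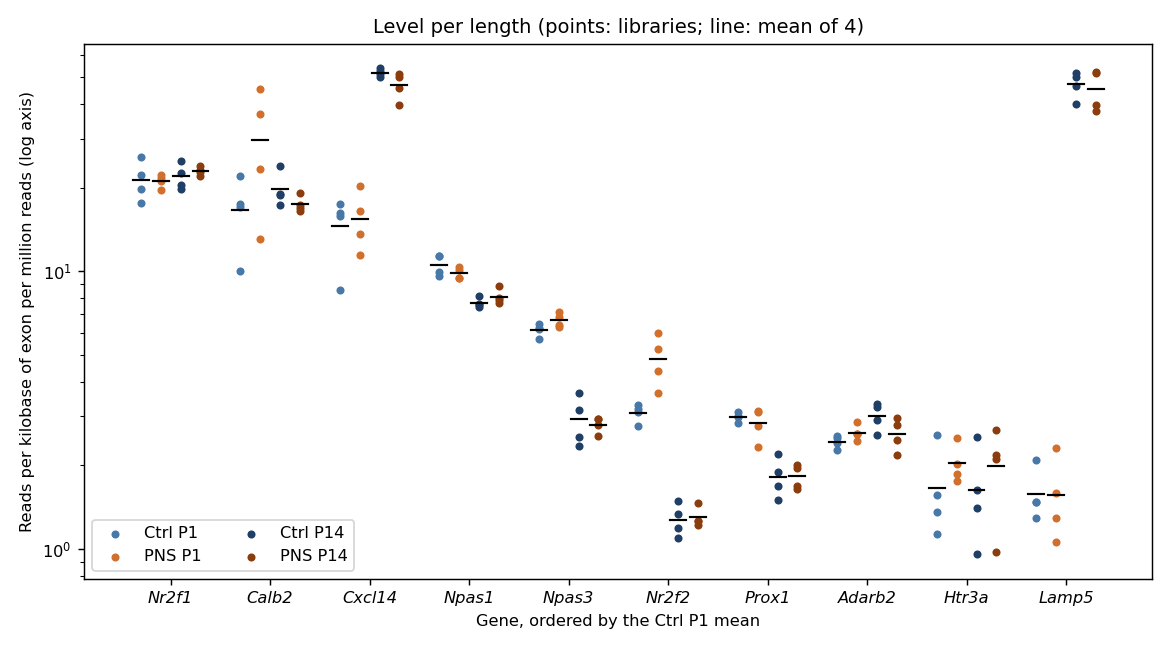
Level per length of the 10 genes in each of the 16 libraries, in RPKM on a log axis, with genes ordered by the Ctrl P1 mean. Points are libraries coloured by group and short black lines are group means. Lamp5 has a mean of 1.58 RPKM in Ctrl P1 and 47.1 RPKM in Ctrl P14, and Nr2f1 has means of 21.1 to 22.9 RPKM in all groups. RPKM has no TMM scaling, so it is not the measure used to test age. With TMM scaling edgeR called Nr2f1 higher with age in PNS.

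The first comparison asked whether offspring of stressed dams differed from controls at P1, while interneurons of caudal origin are still settling in the cortex. Nr2f2 was the member that stood apart: it was higher in all 4 PNS libraries than in any control. None of the 10 genes passed the test. Values here are normalized counts as deposited, and differences are of log2(value + 1), tested by limma with Benjamini-Hochberg adjustment over all genes at a threshold of 0.05.

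Nr2f2 had normalized counts of 1305, 1296, 1098 and 1363 in Ctrl replicates 1 to 4 and of 1728, 2289, 2115 and 1466 in PNS replicates 1 to 4. PNS replicates 2 and 3 were the highest, PNS replicate 4 lay just above the highest control, and the groups did not overlap. The log2 difference was 0.57 ± 0.133 (SE), or 48.3% higher, with an unadjusted limma p of 0.00152 and an adjusted p of 0.669. By DESeq2 on reads recovered from the values the log2 difference was 0.59 with an adjusted p of 0.0172, and by edgeR it was 0.60 with an adjusted p of 0.523. The limma call depended on 1 library: without PNS replicate 4 the log2 difference was 0.69 with an adjusted p of 0.0279. Without PNS replicates 2 and 3 the log2 difference was 0.34 with an adjusted p of 0.9997.

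Calb2 had normalized counts of 1397, 1399, 1753 and 884 in Ctrl and of 1865, 2853, 3686 and 1062 in PNS, in replicate order. PNS replicates 1 to 3 lay above every control, and PNS replicate 4 lay below Ctrl replicates 1 to 3. Its log2 difference of 0.69 ± 0.343 (SE) was the largest of the 10 and did not pass (limma adjusted p = 0.755, unadjusted p = 0.0697). Without PNS replicates 2 and 3 the log2 difference was 0.09, and over the leave-one-out fits it ran from 0.43 to 1.03.

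Among the other factors the groups overlapped. Nr2f1 had normalized counts of 4202 to 6636 in Ctrl and 4666 to 5189 in PNS, with the PNS range lying within that of the controls (log2 difference -0.04, limma adjusted p = 0.956). Prox1 had 1095 to 1277 in Ctrl and 913 to 1226 in PNS, where replicates 2 and 4 lay below every control (log2 difference -0.13, adjusted p = 0.822). Npas1 likewise had 2 PNS libraries under the lowest of the controls (log2 difference -0.14, adjusted p = 0.797). Npas3 had 2 above the highest (log2 difference 0.07, adjusted p = 0.837).

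Htr3a had normalized counts of 246, 153, 108 and 144 in Ctrl and of 178, 232, 171 and 197 in PNS, in replicate order. Its control replicate 1 was higher than every PNS library, and the log2 difference of 0.31 ± 0.226 (SE) did not pass (limma adjusted p = 0.811). Lamp5 had 174 to 288 in Ctrl and 145 to 310 in PNS, and Cxcl14 794 to 1495 in Ctrl and 978 to 1724 in PNS. For both genes the ranges coincided over most of their length, with log2 differences of -0.10 and 0.07. Adarb2 was the steadiest of these, at 1367 to 1596 in Ctrl and 1494 to 1674 in PNS (log2 difference 0.06, adjusted p = 0.856).

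In all, 6 members were higher and 4 lower in PNS at P1, and limma called 0 of the 10, against 0 of 16711 genes, or 0%. An unadjusted p below 0.05 was reached by 1 member, Nr2f2, and by 1115 genes, or 6.67%. By separation of the groups, 1 of the 10 genes had all PNS libraries above all controls, against 1.69% of genes in that direction and 3.23% in either. The median log2 difference of the 10 was 0.07, and that of all genes -0.02. Over all genes edgeR called 0 and DESeq2 79 (65 higher and 14 lower), and limma without PNS replicate 4 called 123 (120 higher and 3 lower).

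Sums for some other cells and tissues moved with the pattern of Nr2f2 and Calb2 over the PNS P1 libraries. All 10 olfactory bulb genes were detected in every P1 library, with summed normalized counts of 1597, 523, 620 and 426 in Ctrl and of 5215, 11320, 7745 and 395 in PNS replicates 1 to 4. The sum was thus highest in PNS replicates 2 and 3, where Nr2f2 and Calb2 were highest, and lowest in PNS replicate 4, where both had their lowest PNS values. The 5 Cajal-Retzius genes, all detected, summed to 1268 to 1500 in Ctrl and to 1568, 2021, 2269 and 1719 in PNS. The 8 meningeal fibroblast genes, all detected, summed to 24904 to 30084 in Ctrl and to 34769, 46902, 51145 and 29350 in PNS. The 10 vascular genes, all detected, summed to 20546 to 25812 in Ctrl and to 24481 to 33344 in PNS. The 20 other genes of caudal eminence classes, described below, summed to 55954 to 61074 in Ctrl. In PNS replicates 1 to 4 they summed to 61020, 70684, 69815 and 60674.5, of which Reln held 23066, 28523, 30131 and 22505. The 8 striatal genes went the other way, with 7 lower and 1 higher in PNS by limma. They summed to 11632 to 17677 in Ctrl and to 10835 to 11719 in PNS. Within Ctrl the olfactory bulb sum was highest in replicate 1, Nr2f2 in replicate 4 and Calb2 in replicate 3. The part of these cells and tissues in the values of Nr2f2 and Calb2 was not tested.

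**Figure D2:**
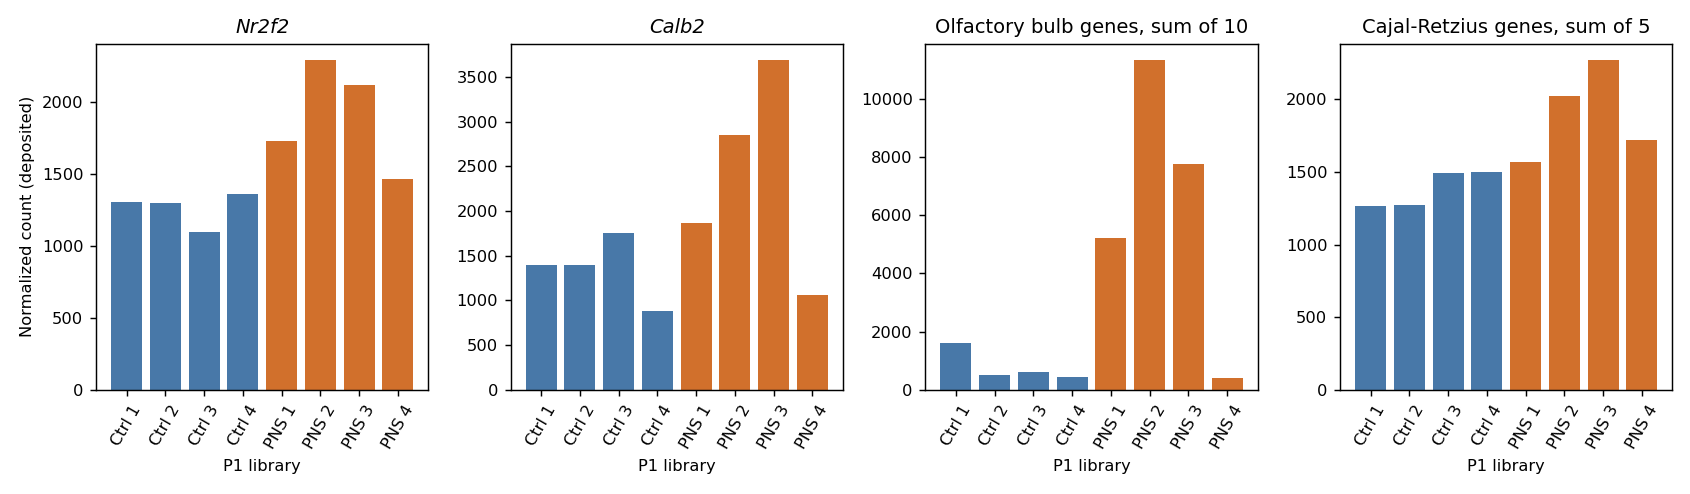
Deposited normalized counts of Nr2f2, Calb2 and the summed olfactory bulb and Cajal-Retzius genes in the 8 P1 libraries, as bars that start at 0 (blue, Ctrl; orange, PNS). PNS replicates 2 and 3 are the highest in all 4 panels, and PNS replicate 4 has the lowest olfactory bulb sum of all, 395.

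At P14 no member stood apart between the groups. Nr2f2 had normalized counts of 416, 335, 362 and 454 in Ctrl and of 383, 381, 386 and 504 in PNS, in replicate order. Only PNS replicate 4 lay above the controls, and the log2 difference was 0.08 ± 0.125 (SE; limma adjusted p = 0.988). Calb2 had 1093, 1177, 1465 and 1158 in Ctrl and 1030, 1042, 1182 and 1210 in PNS. Its log2 difference was -0.13 ± 0.0981 (SE; limma adjusted p = 0.988). PNS replicates 1 and 2 lay below every control and replicates 3 and 4 within their range, without a call at either age.

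The smallest unadjusted p-values at P14 belonged to Cxcl14 and Adarb2. Cxcl14 had normalized counts of 3463, 3249, 3296 and 3484 in Ctrl and of 3281, 3303, 2972 and 2894 in PNS, where replicates 3 and 4 lay below every control. The log2 difference of -0.12 ± 0.0610 (SE) came with an unadjusted limma p of 0.0814 and an adjusted p of 0.988. Adarb2 had 1223, 1546, 1500 and 1361 in Ctrl and 1369, 1323, 1154 and 1141 in PNS, again with replicates 3 and 4 below every control. Its log2 difference was -0.17 ± 0.0919 (SE), with an unadjusted p of 0.0875 and an adjusted p of 0.988.

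Among the rest, Htr3a had the widest spread at P14, with normalized counts of 123, 104, 70.1 and 187 in Ctrl and of 160, 159, 199 and 81.3 in PNS. Its lowest PNS library lay below 3 of the controls and its highest above all of them, and the log2 difference of 0.32 ± 0.321 (SE) equalled its own error. Lamp5 had 4247 to 5390 in Ctrl and 3939 to 5545 in PNS (log2 difference -0.02). The log2 differences of the 4 other factors, Nr2f1, Prox1, Npas1 and Npas3, lay between 0.00 and 0.12, and none of these groups were separate. Limma called 0 of the 10 members at P14, against 0 of 15873 genes, or 0%, and unadjusted p-values below 0.05 were reached by 0 of the 10 and by 479 genes, or 3.02%. All 10 members overlapped between groups, where 2.12% of genes did not. Over all genes edgeR called 0 and DESeq2 5, neither of them calling a member.

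**Figure D3:**
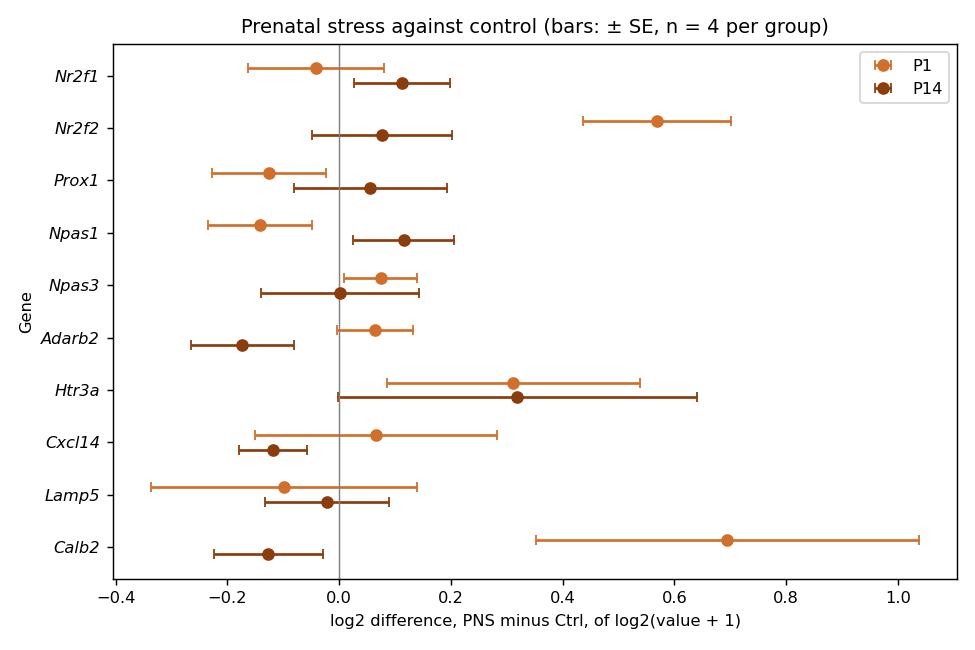
Log2 difference between PNS and Ctrl for each of the 10 genes at P1 and at P14, with bars of ± SE from limma (n = 4 libraries a group). Nr2f2 at 0.57 and Calb2 at 0.69 lie farthest from 0 at P1, and no member passed the adjusted threshold at either age.

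Whether the stress difference itself changed between ages was tested as the P14 difference minus the P1 difference in a limma fit of all 16 libraries. For Nr2f2 the change was -0.49 ± 0.193 (SE) on the log2 scale, with an unadjusted p of 0.0211 and an adjusted p of 0.788. For Calb2 it was -0.82 ± 0.393 (SE), with an unadjusted p of 0.0525 and an adjusted p of 0.815. Without PNS P1 replicates 2 and 3 these changes were -0.26 for Nr2f2 and -0.22 for Calb2, both with an adjusted p of 0.994. Adarb2 followed at -0.24 and Npas1 at 0.26, each with an adjusted p of 0.815. None of the 10 genes passed, against 0 of 16418 genes, or 0%, and 1 of the 10 had an unadjusted p below 0.05, against 973 genes, or 5.93%. Over all genes edgeR called 0, and limma called 74 without PNS P1 replicate 4, all with a lower difference at P14.

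Between P1 and P14 the members moved in opposite directions in control cortex. The effectors Lamp5, Cxcl14 and Adarb2 rose, and the transcription factors Nr2f2, Npas3, Prox1 and Npas1 fell. Levels of the same gene at different ages are given as RPM, recovered reads divided by library size after TMM scaling, since the deposited tables were normalized separately. The test was edgeR's quasi-likelihood test with Benjamini-Hochberg adjustment over all genes.

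Lamp5 had 3.43, 5.66, 3.92 and 4.29 RPM in Ctrl P1 and 129, 164, 154 and 146 in Ctrl P14. Every P14 library was thus far above every P1 library, and the log2 change was 5.09 ± 0.210 (SE), or 34.2-fold, with an edgeR adjusted p of 1.13e-12. Cxcl14 had 26.2, 29.4, 26.9 and 15.5 RPM in Ctrl P1 and 105, 98.8, 98.4 and 105 in Ctrl P14. Its P14 libraries were close to each other while replicate 4 was low among the P1 libraries, and the log2 change was 2.06 ± 0.176 (SE), or 4.16-fold (adjusted p = 1.29e-08). Adarb2 went from 27.0 to 31.1 RPM at P1 to 37.2 to 47.0 at P14, again without overlap, with a log2 change of 0.52 ± 0.0799 (SE; adjusted p = 1.81e-05).

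Nr2f2 had 25.7, 25.5, 21.7 and 26.6 RPM in Ctrl P1 and 12.7, 10.2, 10.8 and 13.7 in Ctrl P14. The ages did not overlap, and Nr2f2 fell by 52.2% (log2 change -1.07 ± 0.138, SE; adjusted p = 2.35e-06). Npas3 had 33.8, 35.9, 33.7 and 33.9 RPM in Ctrl P1 and 24.2, 16.4, 14.9 and 20.4 in Ctrl P14. Its P1 libraries were nearly level, its P14 libraries were spread out below them, and the log2 change was -0.84 ± 0.117 (SE; adjusted p = 5.2e-06). Prox1 fell from 23.3 ± 1.48 to 16.4 ± 2.73 RPM (SD, n = 4; log2 change -0.50, adjusted p = 0.00211).

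Npas1 fell by the smallest amount, from 29.6 ± 3.63 to 24.9 ± 1.43 RPM (SD, n = 4; log2 change -0.24 ± 0.0942, SE; edgeR adjusted p = 0.0283). The Npas1 call was lost without Ctrl P1 replicate 2 (adjusted p = 0.0761) or 4 (0.112), and without Ctrl P14 replicate 2 (0.0596), 3 (0.0620) or 4 (0.0685). Nr2f1 did not pass, at 101 ± 20.3 and 120 ± 11.8 RPM (log2 change 0.24 ± 0.112, SE; adjusted p = 0.0598). Nr2f1 was called higher without Ctrl P1 replicate 4 (log2 change 0.39, adjusted p = 0.00137), Ctrl P14 replicate 2 (0.29, adjusted p = 0.0445) or PNS P14 replicate 4 (0.24, adjusted p = 0.0487). Htr3a (3.20 ± 1.16 and 3.67 ± 1.49 RPM) and Calb2 (26.8 ± 7.18 and 37.0 ± 4.63 RPM) did not pass either, with adjusted p-values of 0.516 and 0.143, although Calb2 passed without PNS P1 replicate 4 (log2 change 0.46, adjusted p = 0.0471).

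Of the 10 genes, 3 were called higher and 4 lower with age in controls, 7 of 10 against 71.2% of all 17139 genes tested, a share near the background. By direction the background was 34.8% higher and 36.4% lower, and 5.83% of genes were called higher past 4-fold, as Lamp5 and Cxcl14 were. Cxcl14 was under 4-fold with library size scaling (log2 change 1.84) and without Ctrl P1 replicate 4 (1.89). Scaling by library size alone, without TMM, moved the median of all genes from -0.04 to -0.25 and the split of calls from 5970 higher and 6237 lower to 4578 and 7893. The 7 member calls in controls kept their direction under that scaling.

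**Figure D4:**
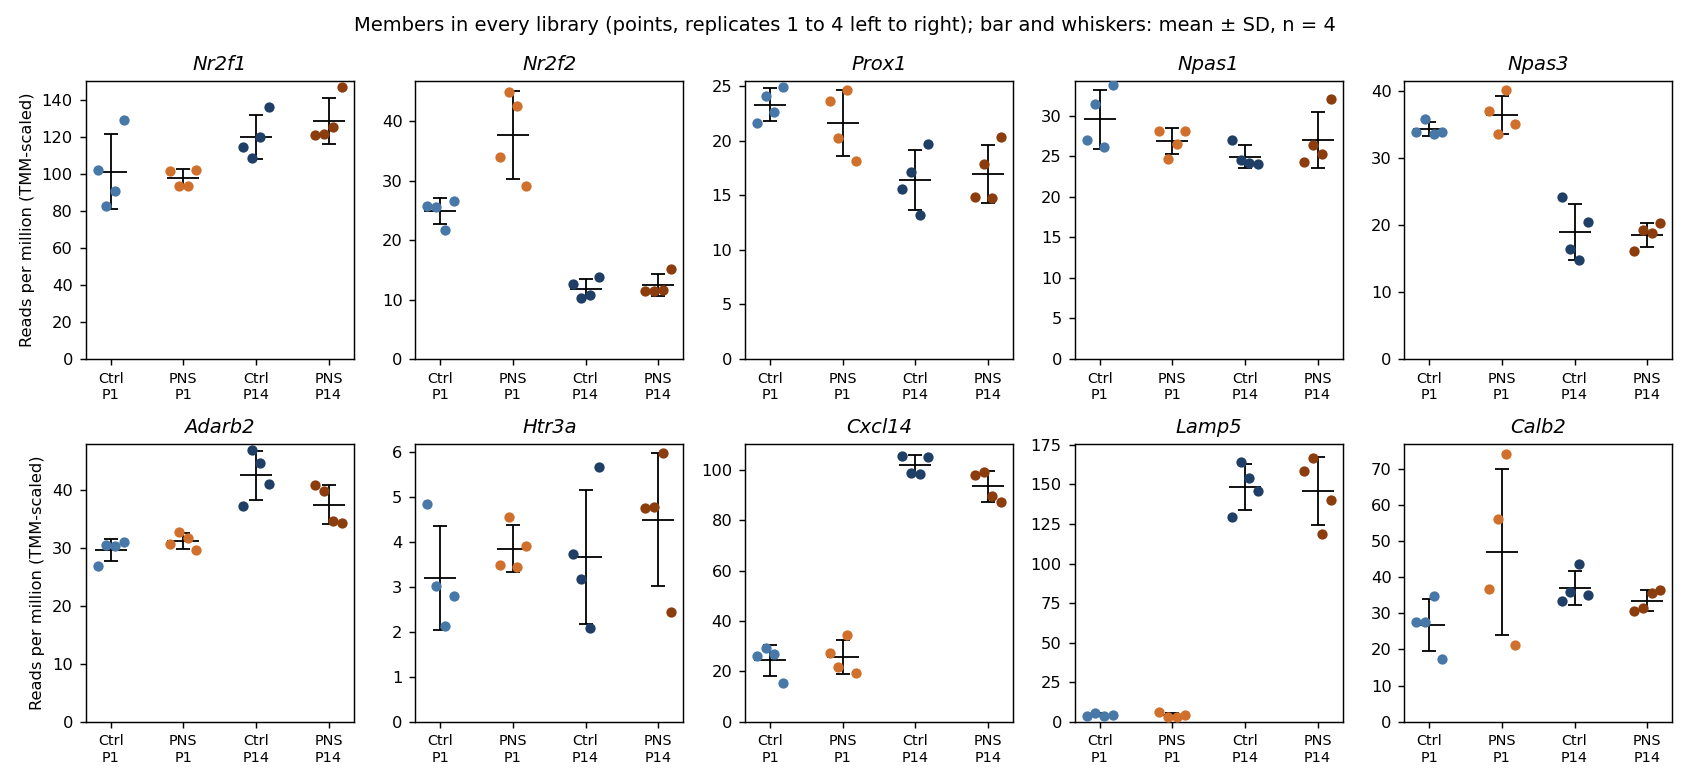
RPM with TMM scaling for each of the 10 genes in all 16 libraries, with black bars and whiskers for the mean ± SD (n = 4 a group); each panel has its own axis from 0. Lamp5 and Cxcl14 are higher, and Nr2f2 and Npas3 lower, at P14 than at P1 in both groups. Calb2 has its highest libraries, up to 74.1, in PNS P1.

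In offspring of stressed dams the same effectors rose (Adarb2 only with TMM scaling or DESeq2's) and most of the same factors fell. Lamp5 had 6.10, 3.31, 2.92 and 4.33 RPM in PNS P1 and 159, 167, 119 and 140 in PNS P14 (log2 change 5.13 ± 0.209, SE; edgeR adjusted p = 1.04e-12). The fold was 35.0, beside 34.2 in controls. Cxcl14 had 27.2, 21.7, 34.7 and 19.4 RPM in PNS P1 and 97.9, 99.4, 89.5 and 87.3 in PNS P14, a log2 change of 1.86 ± 0.174 (SE; adjusted p = 4.29e-08). As in controls, no P1 library of either gene reached a P14 library.

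Nr2f2 had 33.9, 44.9, 42.5 and 29.1 RPM in PNS P1 and 11.4, 11.5, 11.6 and 15.2 in PNS P14. It fell by 67.0% (log2 change -1.60 ± 0.139, SE; edgeR adjusted p = 1.6e-08), and by 1.35 on the log2 scale without PNS P1 replicates 2 and 3. The P14 libraries of the Ctrl and PNS groups held similar levels of Nr2f2, from 10.2 to 15.2 RPM. The test of that difference is the one between the ages given above, which did not pass for Nr2f2 by limma or by edgeR (adjusted p = 0.788 and 0.683). Npas3 fell by 0.97 on the log2 scale (adjusted p = 1.02e-06), from 36.5 ± 2.89 to 18.6 ± 1.80 RPM (SD, n = 4).

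Other members were closer to the threshold or to 0 in PNS. Prox1 fell from 21.7 ± 3.01 to 17.0 ± 2.68 RPM (SD, n = 4; log2 change -0.36, edgeR adjusted p = 0.0185), a call lost without PNS P1 replicate 1 (adjusted p = 0.0542) or 3 (0.0628), or PNS P14 replicate 1 (0.0615) or 3 (0.0668). Nor was the Prox1 call kept in all alternative settings other than leaving out 1 library. Nr2f1 was called higher (97.8 ± 4.85 and 129 ± 12.3 RPM, log2 change 0.40, adjusted p = 0.00422), but not with scaling by library size alone (0.12, adjusted p = 0.272) or without PNS P1 replicates 2 and 3 (0.34, adjusted p = 0.0514). Adarb2 was called higher as well (log2 change 0.26, adjusted p = 0.00748), and scaling by library size turned its direction (-0.01). Npas1 was at 26.9 ± 1.63 and 27.0 ± 3.47 RPM, with a log2 change of 0.00 (adjusted p = 0.976), whereas under library size scaling it was called lower (-0.28, adjusted p = 0.00226).

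Calb2 stood at 47.0 ± 23.0 RPM in PNS P1 and 33.5 ± 2.91 in PNS P14 (SD, n = 4), a log2 change of -0.48 ± 0.272 (SE; edgeR adjusted p = 0.119). Calb2 was called lower without PNS P1 replicate 4 (-0.73, adjusted p = 0.00532) and with library size scaling (-0.76, adjusted p = 0.0211). Over the leave-one-out fits the change ran from -0.73 to -0.17, and only fits without a PNS library could move it much. Without both PNS P1 replicates 2 and 3 it was 0.22 (edgeR adjusted p = 0.412). Htr3a did not pass, at 3.85 ± 0.519 and 4.50 ± 1.48 RPM (adjusted p = 0.483). In PNS 4 members were called higher and 3 lower, 7 of 10 against 72.3% of all genes (34.3% higher and 38.0% lower), and 5.19% of genes were called higher past 4-fold, as Lamp5 was. Library size scaling moved the median of all genes from -0.07 to -0.34 there and the split of calls from 5875 and 6517 to 4121 and 8660, and of the members 2 were then called higher and 5 lower.

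**Figure D5:**
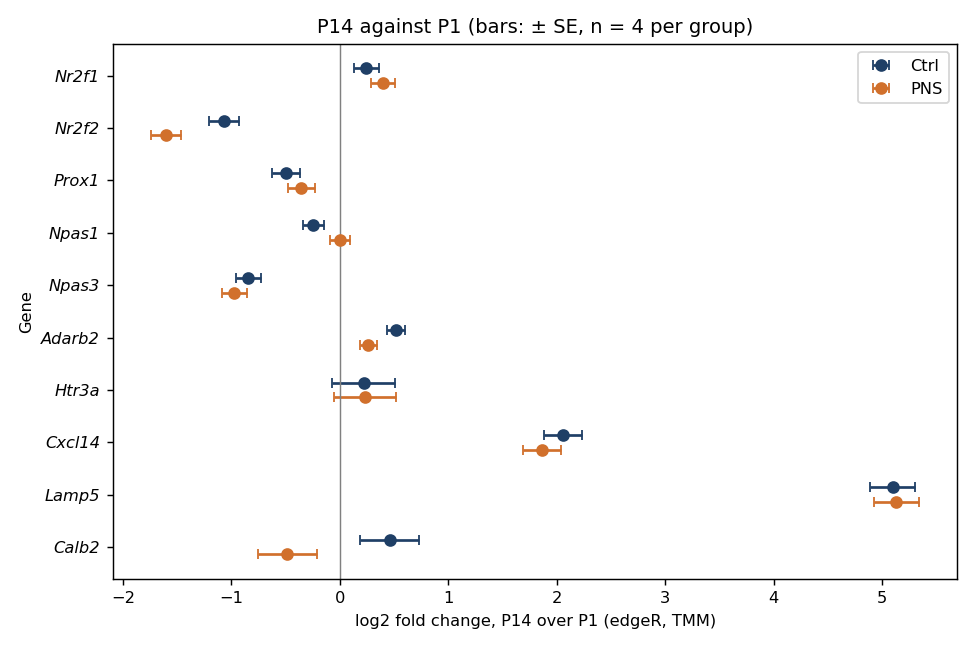
Log2 change from P1 to P14 for each of the 10 genes in Ctrl and in PNS, with bars of ± SE from edgeR (TMM scaling, n = 4 libraries a group). Lamp5 (5.09 and 5.13) and Cxcl14 (2.06 and 1.86) lie far to the right, and Nr2f2 (-1.07 and -1.60) lies farthest to the left in both groups.

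Other genes of the classes derived from the caudal eminence were taken from a list of 20, which overlaps none of the 10 members. At P1 19 of them were tested between PNS and Ctrl: 10 were higher and 9 lower, none was called, 5 had an unadjusted p below 0.05 (6.67% of all genes had), and the median log2 difference was 0.24. The median was 0.12 by edgeR, with 11 higher and 8 lower, and 0.14 by DESeq2. The smallest p-values on the higher side were those of Ndnf (0.33), a secreted protein of neurogliaform cells, Reln (0.46), the extracellular glycoprotein reelin of Cajal-Retzius cells and interneurons, and Synpr (0.52), a synaptic vesicle protein. On the lower side they were those of Cck (-0.14), the neuropeptide cholecystokinin, Egln3 (-0.19), a prolyl hydroxylase, and Krt73 (-0.46), a keratin. Limma adjusted p-values of these 6 genes ran from 0.669 to 0.794, and the olfactory bulb, Cajal-Retzius and meningeal sums given above for the P1 libraries apply to them as well. Vip, the neuropeptide that names the class, had a log2 difference of 0.40 (adjusted p = 0.811).

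At P14 20 of the list were tested, with 7 higher and 13 lower, none called, 2 with an unadjusted p below 0.05 (3.02% of all genes) and a median log2 difference of -0.08. Reln (0.35, limma adjusted p = 0.988), Krt73 (0.24) and Cck (0.11) had the smallest p-values on the higher side. Synpr (-0.26), the zinc finger factor Sp8 (-0.58) and Scgn (-0.88), the calcium-binding protein secretagogin, had them on the lower side. Sp8 and Scgn were highest in Ctrl P14 replicate 3, at normalized counts of 275.65 and 58.4. The other controls held 106.5 to 147.61 and 7.93 to 15.2, and Scgn rested on 5 to 25 reads per P14 library. Ctrl P14 replicate 3 also had the highest olfactory bulb sum at P14 (2154), and its part was not tested. Vip stood at -0.15. For the change between ages of the stress difference, none of 19 was called, and the smallest p-values were those of Krt73 (0.70), Egln3 (0.28) and Cck (0.25) and of Synpr (-0.78), the growth factor Igf1 (-1.52) and Ndnf (-0.33). Vip stood at -0.55 and Reln at -0.11 in that test.

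With age in controls, 9 of these 20 genes were called higher and 5 lower by edgeR (34.8% and 36.4% of all genes), with a median log2 change of 0.83. With library size scaling 9 were called higher and 8 lower, with a median of 0.61. The smallest p-values among those that rose were those of Cck (3.11), Vip (4.11) and Synpr (2.39), and among those that fell those of Id2 (-1.24), an inhibitor of bHLH factors, Reln (-1.11) and Pax6 (-1.32), a paired box factor. The lowest log2 change in the list was that of Sp8, at -2.09 in Ctrl and -2.94 in PNS. In PNS the counts were again 9 higher and 5 lower (34.3% and 38.0% of all genes), and the smallest p-values were those of Cck (3.36), Vip (3.63) and Krt73 (2.96) on one side and Id2 (-1.28), Reln (-1.25) and Ndnf (-0.65) on the other. The median there was 0.17, and it was -0.11 with library size scaling, which called 8 higher and 9 lower.

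Genes shared by GABAergic neurons were taken from a list of 10. Between PNS and Ctrl 9 were higher and 1 lower at P1 (7 and 3 by DESeq2), and 2 higher and 8 lower at P14, with 0 called at either age and 0 with an unadjusted p below 0.05. Their summed normalized counts at P1 were 40324, 30286, 48028 and 30826 in Ctrl and 37142, 42329, 48830 and 30654 in PNS replicates 1 to 4. In PNS the olfactory bulb sum was likewise lowest in replicate 4. Ctrl replicate 3, at 48028, had an olfactory bulb sum of only 620. The part of olfactory bulb tissue was not tested. Gad1 and Gad2, which encode the enzymes that make GABA, had log2 differences of 0.28 and 0.09 at P1 and of -0.14 and -0.09 at P14. With age 4 of the 10 were called higher and 5 lower in both groups (3 and 6 in PNS with library size scaling). Gad1 rose by 1.25 in Ctrl and 0.85 in PNS on the log2 scale, and Gad2 by 2.60 and 2.42, while the homeobox factor genes Dlx1 and Dlx2 were among those that fell. Lhx6, the factor that marks the medial eminence lineage, fell by 1.57 in Ctrl and by 1.43 in PNS, and stood at -0.16 (P1) and 0.01 (P14) between PNS and Ctrl.

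The genes whose pattern over the 8 libraries of an age was most like that of a member were found for the 2 members with the largest SD of log2(value + 1) at each age, among 13128 genes at P1 and 12598 at P14. For Calb2 at P1 (SD 0.689) they were Kcnk13, Fign and Casp1, with root mean square differences of 0.190, 0.216 and 0.221 on the log2 scale. Kcnk13, a potassium channel gene, had normalized counts of 69.4, 54.8, 59.3 and 38.1 in Ctrl and of 93.1, 112, 134 and 40.4 in PNS, so that PNS replicate 3 was highest and the libraries numbered 4 were lowest, as for Calb2. For Htr3a at P1 (SD 0.384) they were Angpt1 (0.163), Fam71e1 (0.169) and Mmrn1 (0.175). For Htr3a at P14 (SD 0.553) they were Nek10 (0.256), Ttc12 (0.270) and Trhr (0.290), and for Npas3 at P14 (SD 0.220) Rflnb (0.0818), Ebf4 (0.0824) and Zscan20 (0.0887).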

How the data were processed

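Per the submitters' processing notes, cutadapt, STAR 2.7.3a on GRCm38, HTSeq counts and DESeq2 normalization made up the upstream pipeline. Poly(A) libraries were prepared in-house from RNA of an RNeasy micro kit, per the labels' protocols. Not given in the sources used here are the annotation release, the strand used in counting and any gene filter. The values deposited by the authors are a normalized signal, that is DESeq2-normalized counts, in separate tables for P1 and P14. At least 99.968% of values per library were whole multiples of the value of 1 read (tolerance 0.0051), which gave back the reads themselves. These recovered counts were used for age and for the count tests of stress, in which edgeR called 0 genes at P1 and 0 at P14.

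In R 4.3.3, limma 3.58.1 with its trend option tested PNS against Ctrl, without covariates, on log2(value + 1) of the genes whose mean reached 10. This scale understates changes of low genes. The interaction used all 16 libraries and genes in both tables. For age, edgeR 4.0.16 (TMM, quasi-likelihood) fitted all 16 libraries in 1 model. Benjamini-Hochberg adjustment ran over all genes, with a threshold of 0.05. DESeq2 1.42.0 was an alternative, as were other pseudocounts (0.5, 5), filters and scalings. Lengths (all exons joined, or the longest transcript as an alternative) and overlaps came from GENCODE on GRCm38, and promoters from RefSeq. Simulated data were used to test limma for the stress comparisons and the interaction, and edgeR and DESeq2 for age in Ctrl. Age in PNS and the edgeR and DESeq2 tests of stress were not simulated.

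The members and gene lists were chosen with earlier results of these data known. All 10 members are named. From the list of other caudal eminence genes 3 per direction, ranked by p, are named, and Vip, Reln, Gad1, Gad2 and Lhx6 throughout. The 3 genes most like a member were taken among genes with a mean of at least 50, skipping predicted genes. Replicate numbers were not treated as pairs, and the fit with them as a block is given only with the alternatives. Intervals of counting error are not printed, since the spread between libraries is.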

Additional observations from a re-analysis of the deposited data

Results flagged for a closer look

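Within the groups of 4 libraries, a library was marked when its gap to the nearest other took up more of the range of the group than Dixon's test allows at the 95% level. Of the 40 groups tested (10 genes in 4 groups), 3 were marked, and chance alone marks about 1 in 20 groups, or 2 of 40. Both COUP-TF genes were high in the same library, PNS P14 replicate 4: Nr2f1 had a normalized count of 4883.53 there against 4046 to 4172 in the other PNS P14 libraries, and Nr2f2 one of 503.56 against 381 to 386. That library also had the highest sums of P14 normalized counts of cortical projection neuron genes (180159, against 124029 to 139505), meningeal genes (7758) and vascular genes (18775), and the lowest of oligodendrocyte genes (25349), and their part was not tested. Npas1 had a normalized count of 888.14 in Ctrl P14 replicate 1 against 794 to 808 in the other controls of that age.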

How the results depend on the processing

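Of 960 recomputed member results, 892 kept direction and side of the threshold, 9 gained a call, 12 lost it and 47 reversed. Many of them could hardly change. Age fits without a library of the other condition barely move the contrast, and no member was called in a main stress fit. At P1 the 0 limma calls became 79 with DESeq2 and 1 with all 16 libraries in 1 fit, and 0 to 123 over leave-one-out fits. At P14 they became 5 with DESeq2 and 0 to 5 over leave-one-out fits, and for the interaction 0 to 74. Without PNS P1 replicates 2 and 3, chosen with the data known, the P1 difference was 0.0243 for Nr2f1, -0.0561 for Cxcl14 and 0.27 for Lamp5, the interaction -0.29 for Lamp5, and the age change in PNS -0.0648 for Npas1 and 0.22 for Calb2. Npas3 at P14 was -0.0353 by edgeR and -0.0277 by DESeq2. Under library size scaling the age change of Htr3a was -0.000885 in Ctrl and -0.0320 in PNS, and in PNS that of Npas1 was -0.28 and of Adarb2 -0.0116. Npas1 in PNS was also -0.000151 without a filter and -0.000355 with the replicate block. Leave-one-out ranges crossed 0 for Nr2f1 (-0.13 to 0.0869), Cxcl14 (-0.14 to 0.19) and Lamp5 (-0.31 to 0.0588) at P1; for Nr2f2 (-0.0218 to 0.15), Prox1 (-0.0364 to 0.15), Npas3 (-0.10 to 0.12) and Lamp5 (-0.0890 to 0.0758) at P14; for Npas3 (-0.18 to 0.0484), Htr3a (-0.22 to 0.27), Cxcl14 (-0.31 to 0.0184) and Lamp5 (-0.0799 to 0.28) in the interaction; and for Htr3a in Ctrl (-0.0571 to 0.49) and Npas1 in PNS (-0.0881 to 0.0508) with age. The causes were not tested.

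Same-numbered libraries had correlations of -0.175 to 0.276 at P1 and -0.163 to 0.032 at P14. Differently numbered libraries had -0.333 to 0.361 at P1 and -0.187 to 0.219 at P14. These correlations are too few to exclude a pairing by number. The replicate block gave 0 calls in both stress comparisons and the interaction, and 12074 and 12285 calls with age in Ctrl and PNS, against 12207 and 12392. Of the members it added 1 call, Nr2f1 with age in Ctrl (0.26, adjusted p = 0.00689). Depth limits Htr3a most, with 30 reads in its shallowest library.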
